A study of Mus musculus with 20 samples.

Results

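The switch that lets a mammalian cell leave G1 was followed through 10 of its genes in RNA sequencing libraries of 7 groups of nude mouse cells. They were Ccnd1, Ccnd2, Ccnd3, Cdk4, Cdk6, Rb1, Cdkn1b, Cdkn2c, Ccne1 and E2f1, taken by gene symbol, 10 of the 43432 genes in the deposited table. All 10 passed the filter on low counts, which kept 15779 genes. The labels call 5 of the groups mouse cells that turned malignant near SU3, a line of human glioma stem cells implanted in the mice or cultured with their cells. C12 was labelled as macrophages that transformed in culture when SU3 was grown with peritoneal washing cells, and ih_CTC as macrophages from a xenograft in the peritoneum. ih_DCTC was labelled as dendritic cells after bone marrow dendritic cells met SU3 in culture. ih_STC_BM was labelled as mesenchymal stem cells grown out of an SU3 tumour in a mouse with damaged and rebuilt marrow, and ih_BCTC as oligodendrocytes recultured from an SU3 tumour in the brain. MDSC, immunosuppressive cells of myeloid origin, and MSC, mesenchymal stem cells from normal mouse marrow, are the groups the study calls precursors. MSC had 2 libraries and each other group 3. All cells were kept in the same serum-containing medium and were grown from single clones per the labels, which name no animal, passage or batch. Each line may thus be 1 clone, and the spread behind every p-value, between libraries of 1 label, may be technical. The design text does not say which precursor belongs to which line and does not list ih_BCTC. C12, ih_CTC and ih_DCTC were set against MDSC by their myeloid labels and ih_STC_BM against MSC by its own, while ih_BCTC against MSC compares it with normal cultured cells and not with a named precursor.

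Cyclins D1, D2 and D3 are made in response to growth factors and bind the kinases CDK4 and CDK6. These complexes phosphorylate the retinoblastoma protein, which in its unphosphorylated form holds E2F transcription factors back, and released E2F switches on cyclin E and the genes of DNA replication. Inhibitors of the INK4 family bind CDK4 and CDK6 alone, while the CIP/KIP protein p27 binds whole cyclin-kinase complexes and restrains cyclin E with CDK2.

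Total counts were 8794777 to 12400640 per library, and levels are given as CPM, counts relative to the library total after scaling by trimmed means of M values (TMM). The labels and the marker genes did not always match. The 8 pan-leukocyte genes summed to 2.25 to 41.4 CPM in the line libraries, against 7013 to 7065 CPM in MDSC and 3721 to 5135 CPM in MSC. Ptprc, which encodes the leukocyte surface protein CD45, averaged 0.236 to 0.758 CPM over the lines, 1556 CPM in MDSC and 214 CPM in MSC. The 8 macrophage genes summed to 32.9 to 192 CPM in the lines, 1980.0 to 1985 CPM in MDSC and 4185 to 4863 CPM in MSC. Csf1r, the receptor of macrophage colony-stimulating factor, averaged 981 CPM in MSC. The 8 dendritic cell genes summed to 5.27 to 13.5 CPM in ih_DCTC, 7127 to 7463 CPM in MDSC and 299.8 to 489.3 CPM in MSC. Fibroblast and mesenchymal genes summed to 2671 to 10270.0 CPM in the lines, 53.4 to 56.4 CPM in MDSC and 4423 to 5359 CPM in MSC. In MSC most of that sum was Col1a1 and Col1a2, at 2077 and 2451 CPM on average. Pdgfra, Pdgfrb, Prrx1 and Eng were also higher in MSC than in MDSC. Thy1 and Nt5e went the other way, at 0.771 and 4.9 CPM in MSC and 12.1 and 20.5 CPM in MDSC. Thy1 was at 50.5 CPM in ih_CTC and at most 1.88 CPM in the other lines, and Nt5e at 2.2 to 8.57 CPM in the lines. The 8 oligodendrocyte genes summed to 41.05 to 70.98 CPM in ih_BCTC, 82.9 to 97.8 CPM in MDSC and 41.09 to 43.5 CPM in MSC. Olig2 and Sox10, which define oligodendrocyte lineage, and Mog had 0 counts in ih_BCTC, whose sum came mostly from Cspg4, a proteoglycan also made by pericytes, at 55.4 CPM on average. MDSC libraries also held 37200.0 to 39690.0 CPM of granulocyte genes, 15420.0 to 16230.0 CPM of erythroid genes and 1586 to 1641 CPM of B lymphocyte genes. In such bulk samples, fewer cells of a type and less RNA per cell cannot be told apart. The share of reads in introns was 1.02% to 8.52% in the lines, 9.64% to 10.4% in MDSC and 2.07% to 3.09% in MSC. It varied inside groups too, with 2.34%, 8.52% and 1.79% in ih_STC_BM and 2.52%, 1.02% and 5.23% in C12.

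In all, 8 of the 10 genes passed the test (edgeR quasi-likelihood, adjusted p under 0.05) in each myeloid-labelled line against MDSC, where most genes did. C12 had 5 higher and 3 lower, where 61.7% of all tested genes were called, 31.3% higher and 30.5% lower. For ih_CTC the counts were 5 and 3, where 55.3% of all genes were called, 28.2% higher and 27.1% lower. For ih_DCTC they were again 5 and 3, where 59.3% were called, 31.2% higher and 28.1% lower. Read against those shares, the 10 genes had more higher calls and about as many lower calls as genes at large, and the excess was not tested. Ccnd1, Ccnd2, Cdk4, Cdk6 and Cdkn2c were the 5 higher genes in all 3 comparisons, and Ccnd3 and Rb1 were lower in all 3. Cdkn1b was the third lower gene in C12 and ih_CTC, and Ccne1 in ih_DCTC. These comparisons share the MDSC libraries. Libraries of the groups did not overlap for 9 of the 10 genes in each, as for 73%, 80.4% and 71.5% of all genes in C12, ih_CTC and ih_DCTC. The median log2 difference of the 10 genes was 1.11, 1.24 and 0.63 in the same order of lines, beside 0.03, 0.08 and 0.09 over all genes.

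Against MSC, 6 of the 10 genes were called in ih_STC_BM, 5 higher and 1 lower, where 32.1% of all genes were called, 14.8% higher and 17.4% lower. In ih_BCTC 3 were called, all higher, where 36.7% of all genes were called, 15.9% higher and 20.8% lower. MDSC against MSC gave 2 higher and 3 lower, where 46% of all genes were called, 20.4% higher and 25.6% lower. Groups did not overlap for 6 genes in ih_STC_BM against MSC, 7 in ih_BCTC against MSC and 9 in MDSC against MSC, beside 46.5%, 70.9% and 82.1% of all genes. The ih_STC_BM count fell to 0 without MSC library 1 or when only those 2 groups were fitted, to 1 without MSC library 2 and to 3 without ih_STC_BM library 1. The MDSC against MSC count was 3 without MSC library 2. The mean of C12, ih_CTC and ih_DCTC against MDSC was also set against ih_STC_BM against MSC, and the 2 differences were unequal for 5 of the 10 genes, with 29.9% of all genes called.

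**Figure D1:**
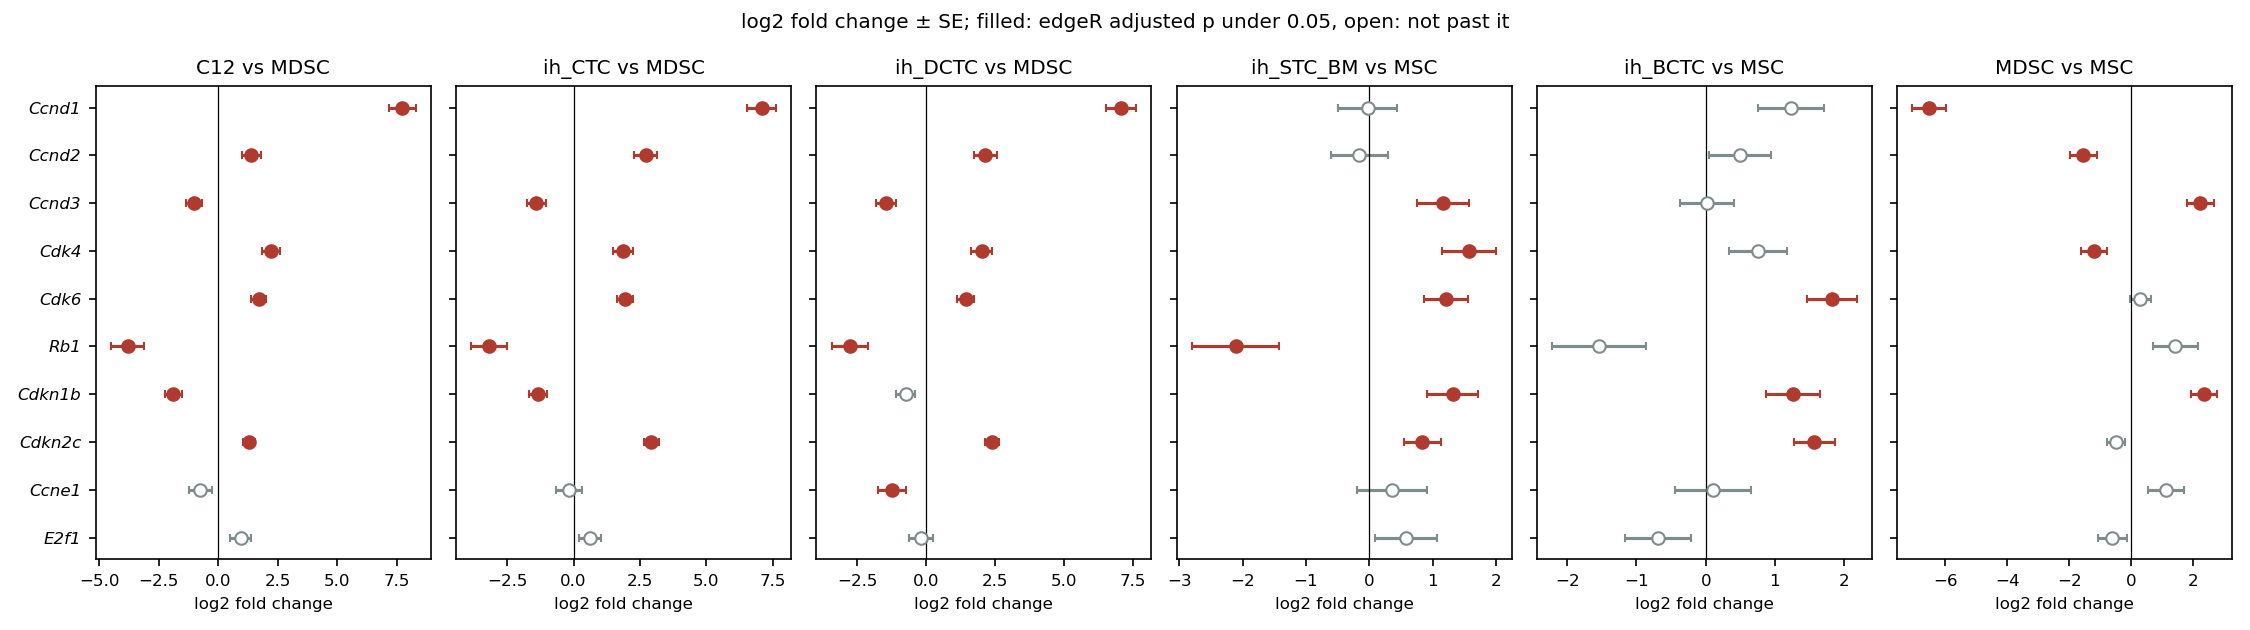
The log2 fold change of each of the 10 genes (rows) in 6 comparisons (panels, each with its own horizontal scale), with the first-named group over the second. Points are edgeR estimates, bars are standard errors, and filled points passed an adjusted p of 0.05. Ccnd1 stood at 7.07 to 7.72 in the lines against MDSC and at -6.52 in MDSC against MSC, while E2f1 lay between -0.69 and 0.94 in every panel.

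Ccnd1 encodes cyclin D1, the D-type cyclin most closely tied to growth factor signals. It lies on chromosome 7 from 144929931 to 144939869 on the minus strand of the deposited annotation, whose genome build no source used here names. Its level was 939.6, 919 and 383 CPM in C12, 515, 522 and 392 CPM in ih_CTC and 339, 753 and 347 CPM in ih_DCTC. ih_STC_BM had 537, 170.0 and 249 CPM and ih_BCTC 832, 821 and 635 CPM, against 3.42, 3.25 and 3.94 CPM in MDSC and 308 and 341 CPM in MSC. All 15 line libraries were above every MDSC library, and 12 were above both MSC libraries. Of the rest, 2 ih_STC_BM libraries were below both MSC libraries. Against MDSC, Ccnd1 rose by 7.72 ± 0.56 on the log2 scale in C12 (SE, adjusted p = 4.28e-09), by 7.07 ± 0.54 in ih_CTC (7.74e-09) and by 7.08 ± 0.54 in ih_DCTC (8.02e-09). It was lower in MDSC than in MSC, with a log2 difference of -6.52 ± 0.54 (6.58e-08). Against MSC the differences were -0.03 ± 0.46 in ih_STC_BM (0.987) and 1.23 ± 0.48 in ih_BCTC (0.0525), neither past the threshold. The second passed with DESeq2 (0.0358) and limma-voom (0.0427). Ordered by mean, the groups ran ih_BCTC, C12, ih_DCTC, ih_CTC, MSC, ih_STC_BM and MDSC, and of neighbours in that order only the step down from ih_STC_BM to MDSC passed, a pair in which 61.7% of all genes were called. Ccnd1 shares 1100 exon bases, 23.4% of its exons, with LTO1 on the opposite strand, and the sources used here do not state whether counting used strand. LTO1 averaged 154 counts per library.

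Cyclin D2 comes from Ccnd2 on chromosome 6 (127125779 to 127151048, minus strand). Ccnd2 measured 103, 43.3 and 118 CPM in C12, 189, 193 and 285 CPM in ih_CTC and 78.9, 156 and 211 CPM in ih_DCTC. In ih_STC_BM it measured 53.4, 119 and 93.7 CPM and in ih_BCTC 91.8, 169 and 159 CPM, against 32.1, 36.4 and 32.6 CPM in MDSC and 82.2 and 116 CPM in MSC. MDSC lay below every other library. The lines spread around MSC, with 9 of 15 libraries above both MSC libraries and 3 below both. Ccnd2 rose against MDSC by 1.39 ± 0.41 in C12 (log2, adjusted p = 0.00732), 2.72 ± 0.43 in ih_CTC (3.79e-05) and 2.14 ± 0.42 in ih_DCTC (3.09e-04). The C12 value was 1.29 with an adjusted p of 0.126 when the MDSC libraries were summed to 1. MDSC was lower than MSC, with a log2 difference of -1.55 ± 0.44 (0.00866), which without MSC library 2 was -1.29 (0.0784). Among the lines, ih_CTC was highest: the log2 difference was -1.33 in C12 against ih_CTC and 1.32 in ih_CTC against ih_STC_BM, both past the threshold (adjusted p = 0.0333 and 0.0329). Both calls were lost without any ih_CTC library (0.0574 to 0.115). The first was also lost without C12 library 1 or 2 (0.0667 and 0.192) and the second without ih_STC_BM library 1 or 3 (0.121 and 0.0737). With the intron share as covariate they were -0.71 (0.233) and 0.88 (0.107), without line libraries under 3% intron share -0.89 (0.13) and 0.90 (0.0808), and with only those groups fitted neither passed (0.0647 and 0.0862). The order was ih_CTC, ih_DCTC, ih_BCTC, MSC, ih_STC_BM, C12 and MDSC, and only the last step passed.

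Ccnd3, on chromosome 17 (47505051 to 47599691, plus strand), encodes cyclin D3, the D-type cyclin known for its role in blood cell precursors. It stood at 155, 196 and 84.8 CPM in C12, 141, 125 and 69.1 CPM in ih_CTC and 160, 80.3 and 83.4 CPM in ih_DCTC. The other libraries gave 172, 111 and 143 CPM in ih_STC_BM and 65.9, 82.2 and 45.3 CPM in ih_BCTC, against 308, 284 and 295 CPM in MDSC and 61.2 and 65.8 CPM in MSC. The place of MDSC turned round against that for Ccnd1: all 15 line libraries were below every MDSC library. The side of MSC did not, as 14 were above both MSC libraries, beside 12 for Ccnd1. The log2 difference from MDSC was -1.02 ± 0.35 in C12 (adjusted p = 0.0177), -1.40 ± 0.35 in ih_CTC (0.00274) and -1.45 ± 0.36 in ih_DCTC (0.00203). The C12 fall was -0.75 and not past the threshold without C12 library 3 (0.076) or with upper quartile scaling (0.0704). MDSC exceeded MSC by 2.22 ± 0.43 (4.36e-04). ih_STC_BM exceeded MSC by 1.16 ± 0.41 (0.0364), a call lost without ih_STC_BM library 1 (0.0962) or without either MSC library (0.179 and 0.142). In ih_BCTC the difference from MSC was 0.02 ± 0.39. Ccnd3 ran MDSC, C12, ih_STC_BM, ih_CTC, ih_DCTC, ih_BCTC and MSC, and only its first step passed. A pseudogene copy, Ccnd3-ps, had 0 or 1 count in every library.

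Compared per kilobase of all annotated exon bases, Ccnd1 made up most of the D-type cyclin RNA in every library outside MDSC. Its share of the sum of the 3 cyclins was 84.6% ± 5.28 in C12, 73.3% ± 4.12 in ih_CTC and 76.3% ± 8.68 in ih_DCTC (SD, n = 3). ih_STC_BM had 69.1% ± 11.7 and ih_BCTC 87.8% ± 2.84, against 1.98% ± 0.202 in MDSC (SD, n = 3) and 78.6% and 80.6% in the 2 MSC libraries. In MDSC, Ccnd3 held 88.6% ± 0.892 of the sum and Ccnd2 9.45% ± 0.92. MDSC thus stood apart in composition, and the lowest Ccnd1 share in any line library was 58.8%. The sum itself averaged 184.6, 137.5, 129.9, 93.3 and 184.1 CPM per kilobase in C12, ih_CTC, ih_DCTC, ih_STC_BM and ih_BCTC, against 38.0 in MDSC and 86.7 in MSC. With the longest transcript as length, the mean Ccnd1 share of a group was 59.4% to 83.9% in the lines, 1.14% in MDSC and 73.1% in MSC. By that length ih_STC_BM libraries 2 and 3 held 48.8% and 56.2%, so in library 2 Ccnd1 was less than the other 2 cyclins together.

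**Figure D2:**
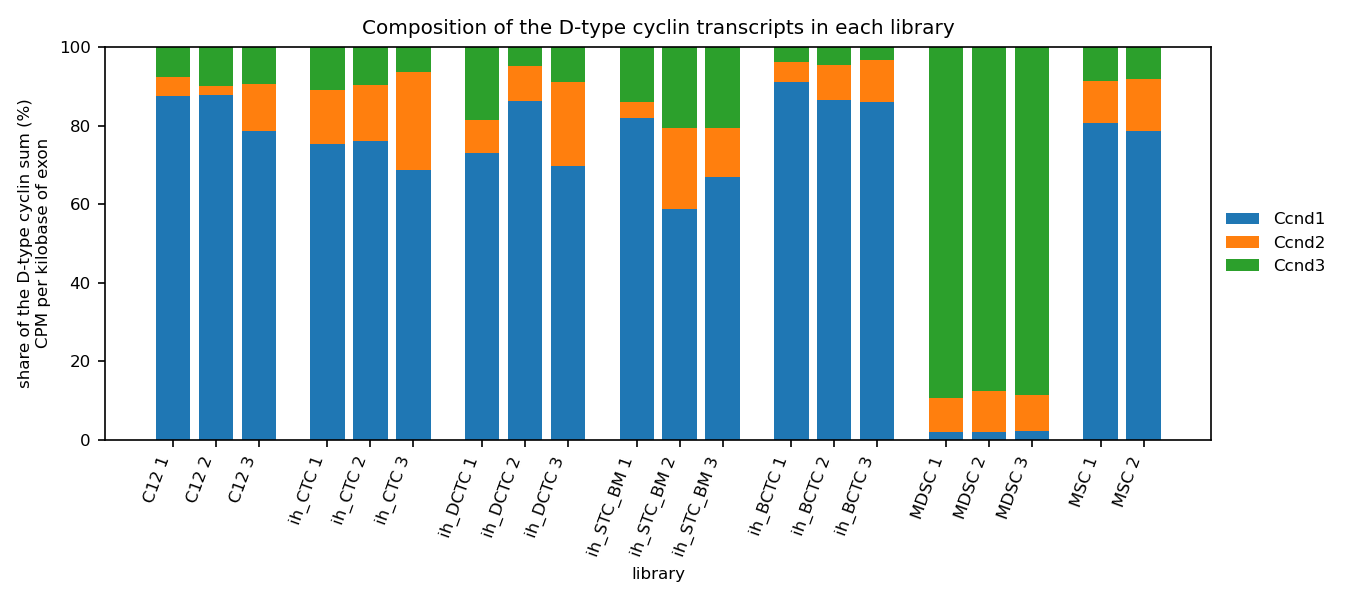
The share of Ccnd1, Ccnd2 and Ccnd3 in their summed level (CPM per kilobase of exon, in percent) for each of the 20 libraries, 1 bar per library. Ccnd1 filled 58.8% to 91.1% of the bars of the lines and 78.6% to 80.6% of those of MSC, and Ccnd3 filled 87.7% to 89.4% of those of MDSC.

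Cdk4 encodes the main catalytic partner of the D-type cyclins and lies on chromosome 10 (127063534 to 127067920, plus strand). Its level was 461, 646 and 312 CPM in C12, 396, 351 and 378 CPM in ih_CTC and 573, 412 and 266 CPM in ih_DCTC. ih_STC_BM had 722, 314 and 1078 CPM and ih_BCTC 465, 386 and 355 CPM, against 107, 97.9 and 104 CPM in MDSC and 233 and 240.3 CPM in MSC. All 15 line libraries exceeded every library of both precursor groups. Cdk4 rose against MDSC by 2.20 ± 0.38 in C12 (log2, adjusted p = 1.035e-04), 1.87 ± 0.38 in ih_CTC (4.54e-04) and 2.02 ± 0.38 in ih_DCTC (2.23e-04). Against MSC it rose by 1.57 ± 0.43 in ih_STC_BM (0.00999), but without MSC library 1 or 2 that p was 0.0802 or 0.0702. With ih_STC_BM library 2 alone, the 1 library of that line above 3% intron share, differences from MSC were 0.37 for Cdk4, 0.51 for Cdk6 and 0.77 for Ccnd3. That library had 8.52% of reads in introns and the MSC libraries, which were kept, 2.07% and 3.09%. The setting thus widened the gap in intron share, as the ih_STC_BM libraries left out were at 2.34% and 1.79%. ih_BCTC exceeded MSC by 0.76 ± 0.42, which did not pass (0.167). MDSC was below MSC, at -1.20 ± 0.41 (0.0222), a call lost without any 1 of the 5 libraries (0.051 to 0.0815) and turned round to 0.46 (0.336) with the intron share as covariate. By mean the order was ih_STC_BM, C12, ih_DCTC, ih_BCTC, ih_CTC, MSC and MDSC, and only the last step passed. With the share of reads in introns as a covariate, Cdk4 was higher than in MDSC by 0.55 in C12 (0.194), while ih_CTC and ih_DCTC kept their calls at 1.14 and 0.75. On its exons Cdk4 shares 641 bases, 19.7%, with Tspan31 on the opposite strand, which averaged 843 counts per library.

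RefSeq promoter windows of 250 bases before the transcript start were at hand for 7 of the 10 genes, on GRCm38.p6. Of these, 3 are shown. Cdk4 was above both precursor groups in every line library, and Ccnd3 and Cdkn1b were both highest in MDSC. Among genes not shown, Cdk6, also above both precursor groups in every line library, had 1 E-box in its window. The windows of Cdkn2c, Ccne1 and E2f1 held no E-box, though Cdkn2c was above every MDSC library in all 15 line libraries and above both MSC libraries in 14. No windows were at hand for Ccnd1, Ccnd2 and Rb1. Capitals mark the E-box CACGTG, a site bound by MYC and related factors, and the GC box GGGCGG, each searched on both strands. All 3 windows lie on the plus strand, at chr10:127063285-127063534 for Cdk4, chr17:47504801-47505050 for Ccnd3, the upstream of its 2 RefSeq windows, and chr6:134920151-134920400 for Cdkn1b.
Cdk4 promoter: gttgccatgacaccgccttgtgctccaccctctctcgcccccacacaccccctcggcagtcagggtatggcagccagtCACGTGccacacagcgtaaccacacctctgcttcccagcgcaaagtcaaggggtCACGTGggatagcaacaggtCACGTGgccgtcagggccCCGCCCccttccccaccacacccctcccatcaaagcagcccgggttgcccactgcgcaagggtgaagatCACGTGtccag
Ccnd3 promoter: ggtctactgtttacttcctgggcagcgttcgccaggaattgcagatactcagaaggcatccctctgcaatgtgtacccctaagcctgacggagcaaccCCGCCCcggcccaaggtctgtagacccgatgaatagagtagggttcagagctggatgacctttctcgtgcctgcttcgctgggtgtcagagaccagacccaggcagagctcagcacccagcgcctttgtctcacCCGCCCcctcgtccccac
Cdkn1b promoter: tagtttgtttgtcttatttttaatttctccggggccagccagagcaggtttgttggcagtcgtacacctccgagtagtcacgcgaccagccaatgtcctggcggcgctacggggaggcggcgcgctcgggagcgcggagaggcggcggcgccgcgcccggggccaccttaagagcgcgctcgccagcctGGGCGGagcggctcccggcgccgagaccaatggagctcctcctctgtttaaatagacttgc
The Cdk4 window held 4 E-boxes and 1 GC box. Of 32817 windows of that length, 6.02% held at least 1 E-box and 7 windows, 0.0213%, held 4 or more. The Ccnd3 window held 2 GC boxes and that of Cdkn1b 1, and neither held an E-box, nor did the other Ccnd3 window, at chr17:47593217-47593466 with 1 GC box, while 32.7% of all windows held a GC box. A set of 4 E2F-like strings (TTTCCCGC, TTTCGCGC, TTTGCCGC and TTTGGCGC) occurred in 1.86% of all windows and in none of those of the 7 genes. The E2f1 window lies inside the deposited gene, with all 250 bases in annotated E2f1 exon. So does the Cdkn2c window at chr4:109666757-109667006, and the other Cdkn2c window ends 1817 bases inside the deposited gene start. For E2f1 and Cdkn2c, bases before the deposited gene start were thus not searched. A match describes letters only.

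Cdk6, on chromosome 5 (3343893 to 3523218, plus strand), encodes the other partner kinase, which is prominent in blood cells. It measured 33.0, 29.6 and 22.4 CPM in C12, 32.3, 42.0 and 26.4 CPM in ih_CTC and 20.3, 22.5 and 27.8 CPM in ih_DCTC. There were 19.2, 10.5 and 20.1 CPM in ih_STC_BM and 23.2, 20.7 and 32.1 CPM in ih_BCTC, against 10.4, 9.62 and 6.29 CPM in MDSC and 7.08 and 7.29 CPM in MSC. Every line library was above every library of both precursor groups, the closest being ih_STC_BM library 2. Against MDSC the rise was 1.69 ± 0.31 in C12 (log2, adjusted p = 1.42e-04), 1.94 ± 0.31 in ih_CTC (4.08e-05) and 1.43 ± 0.30 in ih_DCTC (6.54e-04). With the intron share as covariate, the C12 value was 1.06 (0.0545). Against MSC the rise was 1.21 ± 0.35 in ih_STC_BM (0.0133), lost without MSC library 1 (0.0915) or 2 (0.0815), and 1.82 ± 0.36 in ih_BCTC (6.33e-04). MDSC differed from MSC by 0.28 ± 0.34 (0.518). Cdk6 ran ih_CTC, C12, ih_BCTC, ih_DCTC, ih_STC_BM, MDSC and MSC, with only the step from ih_STC_BM to MDSC past the threshold (0.92, adjusted p = 0.0139). That call was lost without ih_STC_BM library 1 (0.0512) or 3 (0.0518) or MDSC library 3 (0.0758), with MDSC summed to 1 (0.155) and with only the groups compared (0.0613). The step was 0.37 (0.467) with the intron share as covariate and 0.27 (0.525) without line libraries under 3% intron share. Per kilobase of exon, Cdk4 made up 97.95% to 99.4% of the Cdk4 and Cdk6 sum in the group means of lines and precursors alike. That sum averaged 147.6, 117.9, 130.0, 218.1 and 125.6 CPM per kilobase in C12, ih_CTC, ih_DCTC, ih_STC_BM and ih_BCTC, against 32.3 in MDSC and 73.4 in MSC.

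**Figure D3:**
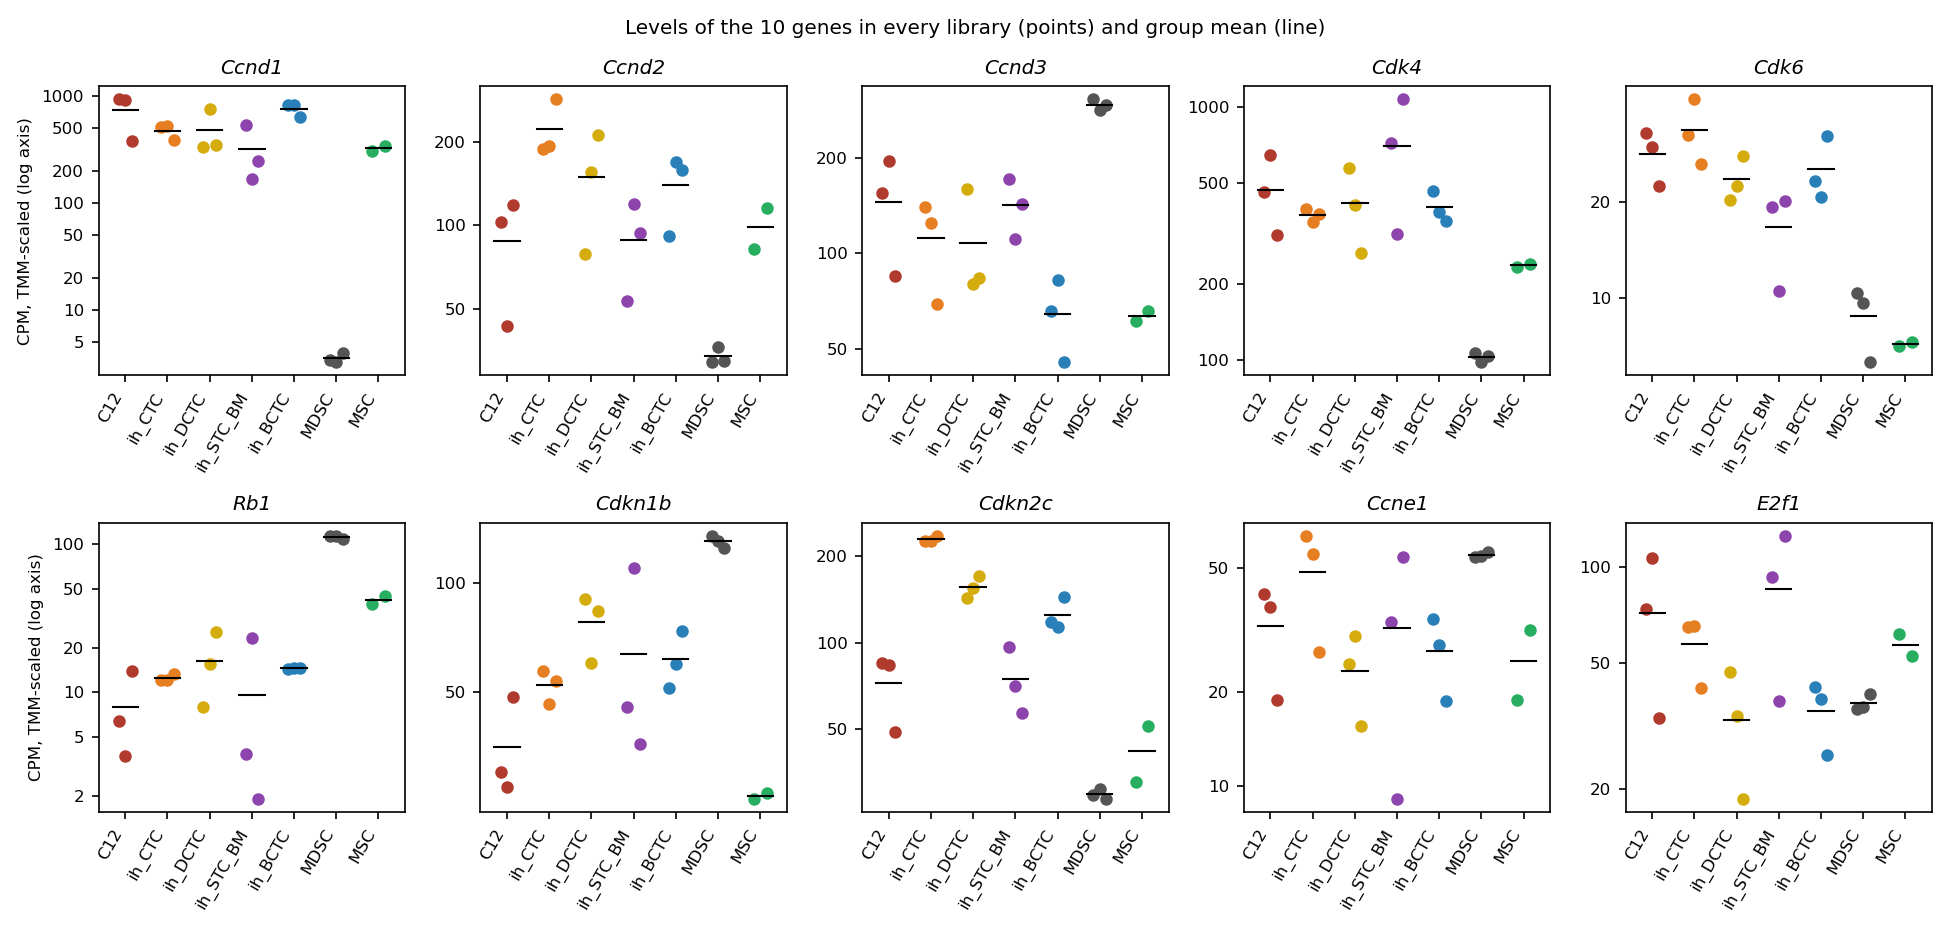
The level of each of the 10 genes (CPM, log axis) in every library, as 1 point, with the mean of its group as a line. All 15 line points lay above both precursor groups for Cdk4 and Cdk6 and below both for Rb1, while MDSC points were the lowest for Ccnd1 and the highest for Ccnd3.

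Rb1 encodes the retinoblastoma protein, the substrate of these kinases, on chromosome 14 (73183673 to 73325822, minus strand). Rb1 measured 6.37, 3.73 and 13.9 CPM in C12, 12.02, 11.998 and 13.2 CPM in ih_CTC and 7.97, 15.5 and 25.5 CPM in ih_DCTC. It had 3.82, 23.1 and 1.91 CPM in ih_STC_BM and 14.4, 14.5 and 14.5 CPM in ih_BCTC, against 114, 114 and 108 CPM in MDSC and 39.6 and 44.4 CPM in MSC. All 15 line libraries were below every library of both precursor groups. The log2 difference from MDSC was -3.80 ± 0.69 in C12 (adjusted p = 1.51e-04), -3.17 ± 0.67 in ih_CTC (6.15e-04) and -2.77 ± 0.66 in ih_DCTC (0.00157). Against MSC it was -2.11 ± 0.69 in ih_STC_BM (0.0266) and -1.54 ± 0.68 in ih_BCTC (0.0875), the second not past the threshold. The ih_BCTC value stayed uncalled in 9 of 13 alternatives. It passed with limma-voom (-1.53, 0.0342), only those groups fitted (-1.60, 2.55e-04) and the intron share as covariate (-3.00, 7.75e-07). Without line libraries under 3% intron share it was -1.58. Rb1 in ih_STC_BM was at -3.86 without its library 2 (8.23e-05) and at -0.90 in library 2 alone, where the gap in intron share to MSC was wider. The call was lost without library 1 (-1.73, 0.09) or 3 (-1.59, 0.0718) or without MSC library 1 (-2.20) or 2 (-2.03). MDSC exceeded MSC by 1.41 ± 0.72, which did not pass (0.117) and turned round to -1.80 (0.00341) with the intron share as covariate. That difference passed with limma-voom (1.41, 0.03) and with only those groups fitted (1.43, 2.03e-05). Its order was MDSC, MSC, ih_DCTC, ih_BCTC, ih_CTC, ih_STC_BM and C12, and no neighbours differed past the threshold. Rb1 shares 8.1% of its exon bases with Rcbtb2 and 6.8% with Lpar6, both on the opposite strand.

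Rb1 moved most with the share of reads in introns. In the fit with that share as covariate, Rb1 was higher by 0.43 ± 0.05 on the log2 scale for each added percentage point (adjusted p = 3.93e-06). The slope was -0.22 ± 0.04 for Cdk4 (2.15e-04), -0.26 ± 0.05 for E2f1 (1.84e-04) and -0.26 ± 0.07 for Ccne1 (0.0102), each lower where more reads fell in introns. In all, 7 of the 10 genes moved with the share, beside 43% of all genes, and Ccnd1, Cdk6 and Cdkn2c were those that did not pass. The 2 ih_STC_BM libraries with the lowest intron shares had the 2 highest Cdk4 levels of all 20 libraries. Those libraries also had 2 of the 3 lowest Rb1 levels. Under that covariate, the Rb1 difference from MDSC was -0.94 in C12 (0.0745) and -0.49 in ih_DCTC (0.263), and neither passed, while ih_CTC kept its call at -1.74. No line library reached the intron shares of MDSC, so between these groups that share and the group cannot be told apart beyond the fitted slope. Across the 20 libraries Pearson's r between log2 levels of Cdk4 and Rb1 was -0.98, a description of libraries that share groups, scaling and intron shares.

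**Figure D4:**
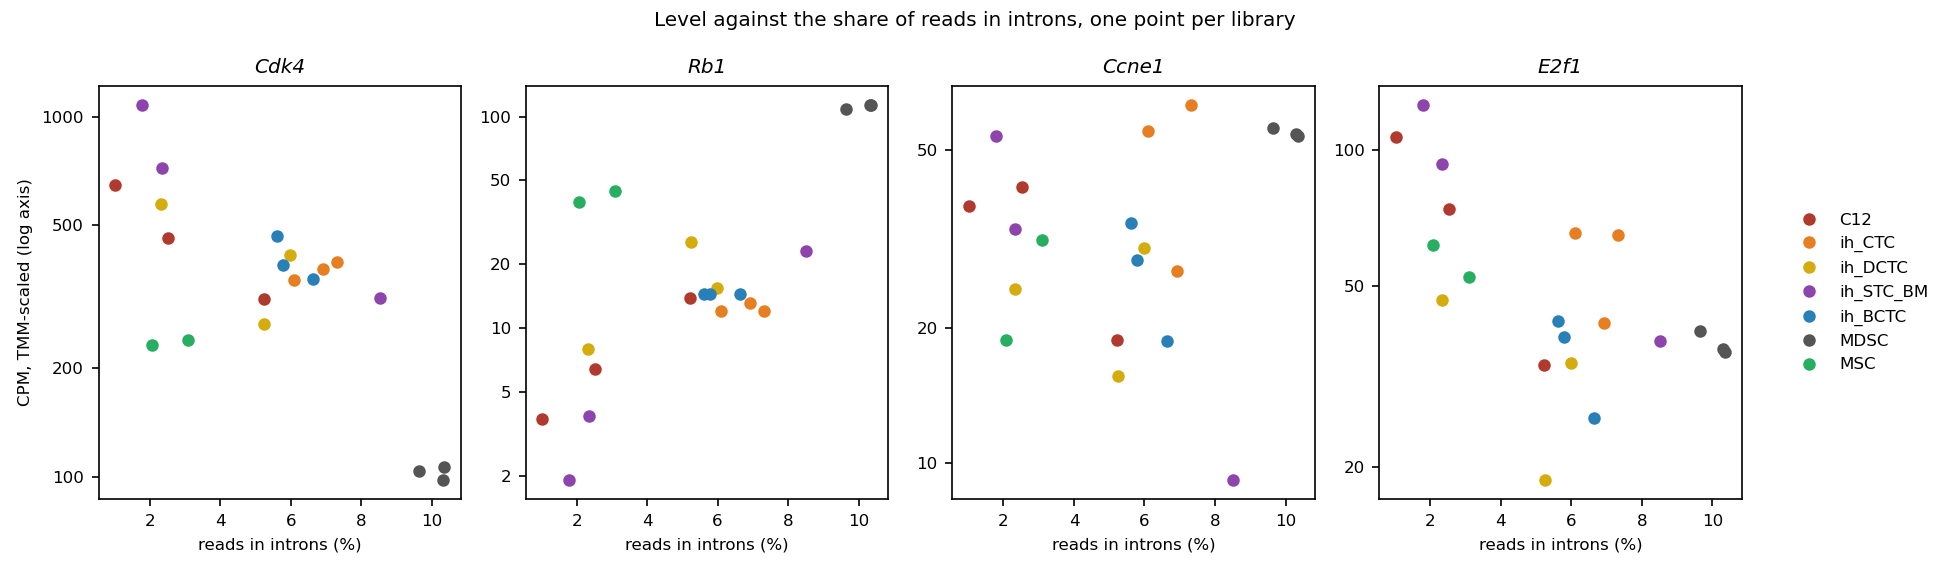
The level (CPM, log axis) of Cdk4, Rb1, Ccne1 and E2f1 against the share of reads in introns (percent), 1 point per library, coloured by group. The 4 highest Cdk4 levels, 573 CPM and above, and the 5 lowest Rb1 levels, up to 7.97 CPM, were in line libraries with intron shares of 1.02% to 2.52%, while the 2 MSC libraries, at 2.07% and 3.09%, had Rb1 at 39.6 and 44.4 CPM.

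Cdkn1b encodes p27, which blocks cyclin E with CDK2, and lies on chromosome 6 (134920401 to 134925513, plus strand). Cdkn1b levels were 30.1, 27.3 and 48.4 CPM in C12, 57.3, 46.4 and 53.5 CPM in ih_CTC and 90.8, 60.1 and 83.6 CPM in ih_DCTC. They were 45.5, 110.0 and 35.9 CPM in ih_STC_BM and 51.3, 59.8 and 73.9 CPM in ih_BCTC, against 136, 131 and 125 CPM in MDSC and 25.3 and 26.3 CPM in MSC. All line libraries lay between the precursor groups, below every MDSC library and above both MSC libraries. Against MDSC, Cdkn1b was lower, at -1.89 ± 0.35 in C12 (log2, adjusted p = 1.77e-04) and -1.32 ± 0.34 in ih_CTC (0.00333). In ih_DCTC the difference was -0.74 ± 0.34 and did not pass (0.0679), but it did with DESeq2 (-0.88, 0.0234). With the intron share as covariate, C12 stood at -0.74 (0.106). Against MSC it rose by 1.31 ± 0.40 in ih_STC_BM (0.0172) and 1.26 ± 0.39 in ih_BCTC (0.0184). Without ih_STC_BM library 2, which held 110.0 CPM, the first was 0.65 (0.0997), and without MSC library 1 or 2 its p was 0.111 or 0.096. The ih_BCTC call was lost without ih_BCTC library 3 (0.0585) or without MSC library 1 (0.116) or 2 (0.0905). MDSC exceeded MSC by 2.34 ± 0.41 (2.11e-04). Ordered MDSC, ih_DCTC, ih_STC_BM, ih_BCTC, ih_CTC, C12 and MSC, no neighbours differed past the threshold.

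Cdkn2c, the gene of the INK4 inhibitor p18, lies on chromosome 4 (109660876 to 109667189, minus strand). It gave 85.0, 83.7 and 48.9 CPM in C12, 224, 224 and 234 CPM in ih_CTC and 143, 154 and 169.5 CPM in ih_DCTC. ih_STC_BM held 96.8, 71.0 and 57.2 CPM and ih_BCTC 118, 113 and 144 CPM, against 29.6, 31.1 and 28.8 CPM in MDSC and 32.9 and 51.4 CPM in MSC. Every line library was above MDSC, and 14 of 15 were above both MSC libraries, the exception being C12 library 3. Against MDSC, Cdkn2c rose by 1.28 ± 0.26 in C12 (log2, adjusted p = 3.53e-04), 2.93 ± 0.27 in ih_CTC (6.59e-08) and 2.38 ± 0.26 in ih_DCTC (6.40e-07). Against MSC it rose by 0.83 ± 0.29 in ih_STC_BM (0.0349) and 1.57 ± 0.30 in ih_BCTC (4.59e-04). The first was lost without MSC library 1 (0.54, 0.325) or ih_STC_BM library 1 (0.60, 0.134). MDSC and MSC differed by -0.50 ± 0.28 (0.154).

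Cdkn2c also differed among the lines themselves. In a test for any difference among the 5 lines it alone of the 10 genes passed (adjusted p = 2.91e-04), with 33.2% of all genes called. It passed in 7 of the 10 pairs of lines, with C12 and ih_STC_BM low and ih_CTC high. Calls over all genes made up 16.5%, 12.2%, 7.53% and 20% in C12 against ih_CTC, ih_DCTC, ih_STC_BM and ih_BCTC, and 8.21%, 18.2% and 6.29% in ih_CTC against ih_DCTC, ih_STC_BM and ih_BCTC. They made up 10.9% in ih_DCTC against ih_STC_BM and 20.4% in ih_STC_BM against ih_BCTC. For Cdkn2c the log2 difference was -1.65 ± 0.26 in C12 against ih_CTC and 1.60 ± 0.26 in ih_CTC against ih_STC_BM, and both kept their call under every alternative run. The 3 calls with ih_BCTC, at 0.86 in ih_CTC (0.0489), -0.79 in C12 (0.0358) and -0.74 in ih_STC_BM (0.0468), were each lost with RLE scaling (0.05001, 0.0557 and 0.0587), upper quartile scaling (0.0549, 0.0645 and 0.0557) and no filter on low counts (0.129, 0.105 and 0.0939). Each was also lost without any 1 ih_BCTC library (0.0536 to 0.175), the first without any ih_CTC library, the second without C12 library 2 or 3 and the third without ih_STC_BM library 2 or 3. With only the groups compared, C12 against ih_DCTC (0.126), ih_DCTC against ih_STC_BM (0.303), C12 against ih_BCTC (0.117) and ih_STC_BM against ih_BCTC (0.181) did not pass, and ih_DCTC against ih_STC_BM was also lost without ih_STC_BM library 3 (0.0535). DESeq2 called 6 of the 10 genes among the lines, and the edgeR count was 6 without C12 library 3, 7 without ih_STC_BM library 2, 4 without ih_DCTC library 1, and 2 without library 2 or 3 of ih_DCTC or library 1 or 3 of ih_STC_BM. The full order of Cdkn2c was ih_CTC, ih_DCTC, ih_BCTC, ih_STC_BM, C12, MSC and MDSC, with the steps from ih_BCTC to ih_STC_BM (0.0468) and from C12 to MSC (0.0447, a pair with 33.1% of all genes called) past the threshold. C12 and MSC libraries overlapped. That step of 0.78 was 0.50 without MSC library 1, 0.65 (0.137) without C12 library 1 and 0.74 (0.094) without C12 library 2. It was 0.84 with no filter (0.076) or with only those groups (0.163), and none of these passed. Without line libraries under 3% intron share it was 0.19, a fit that left C12 library 3, at 5.23%, against MSC at 2.07% and 3.09%. Other genes passed in at most 2 of the 10 pairs of lines. Cdk6 was higher in ih_CTC than in ih_STC_BM by 1.02 (adjusted p = 0.0269). That call was lost without ih_CTC library 1 (0.0632) or 2 (0.125) and with only those groups (0.131). Cdkn1b was lower in C12 than in ih_DCTC, at -1.15 (0.0355). This was lost without C12 library 1 or 2 or ih_DCTC library 1 or 3 (0.0903 to 0.187), with no filter (0.0613) and with only those groups (0.14). Ccnd3 was higher in C12 and ih_STC_BM than in ih_BCTC by 1.17 and 1.14, and Ccnd1 was lower in ih_STC_BM than in ih_BCTC, at -1.26 (adjusted p = 0.027, 0.0313 and 0.0417). None of these 3 calls held with only the groups compared (0.0586, 0.0798 and 0.139). The Ccnd3 difference of C12 was lost without C12 library 1 or 2 or ih_BCTC library 1 or 3 (0.0735 to 0.116), and was 0.65 (0.149) with the intron share as covariate and 0.42 (0.426) without line libraries under 3% intron share. That of ih_STC_BM was lost without ih_STC_BM library 1 or ih_BCTC library 1 or 3 (0.0855 to 0.127), and was 0.79 (0.0871) without those low-intron libraries. The Ccnd1 call was lost without ih_STC_BM library 2 or 3 or any ih_BCTC library (0.0639 to 0.136). Between ih_DCTC and ih_BCTC edgeR called 0 of 10 genes and 0% of all genes, 1 and 1605 at an unadjusted p under 0.05. DESeq2 called 0 of the 10 and 116 genes there, and limma-voom 0 and 0.

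Ccne1 encodes cyclin E1, an E2F target that binds CDK2, on chromosome 7 (38097984 to 38107534, minus strand). Ccne1 stood at 41.3, 37.5 and 18.8 CPM in C12, 63.3, 55.3 and 26.8 CPM in ih_CTC and 24.5, 30.2 and 15.6 CPM in ih_DCTC. ih_STC_BM gave 33.4, 9.12 and 54.0 CPM and ih_BCTC 34.3, 28.4 and 18.7 CPM, against 53.9, 54.5 and 56.1 CPM in MDSC and 18.8 and 31.5 CPM in MSC. MDSC was high, with libraries close together as over genes at large, while the libraries of single lines spread widely and overlapped MSC. The one call was ih_DCTC against MDSC, -1.23 ± 0.50 on the log2 scale (adjusted p = 0.0414). It was lost without ih_DCTC library 1 (0.0687) or 3 (0.14), or without any MDSC library (0.0723 to 0.0782). Its differences were -0.75 ± 0.49 in C12 (0.19) and -0.18 ± 0.49 in ih_CTC (0.778) against MDSC. They were 0.35 ± 0.55 in ih_STC_BM (0.677) and 0.11 ± 0.55 in ih_BCTC (0.911) against MSC, and 1.12 ± 0.57 in MDSC against MSC (0.114). With ih_STC_BM library 2 alone, at 8.52% of reads in introns against 2.07% and 3.09% in MSC, the Ccne1 difference turned round to -1.51. Ccne1 ran MDSC, ih_CTC, C12, ih_STC_BM, ih_BCTC, MSC and ih_DCTC, with no step past the threshold.

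E2f1, the founding member of the E2F factors, lies on chromosome 2 (154559407 to 154569892, minus strand). E2f1 read 74.1, 107 and 33.6 CPM in C12, 64.8, 65.5 and 41.6 CPM in ih_CTC and 46.7, 33.9 and 18.7 CPM in ih_DCTC. It read 93.0, 37.9 and 126 CPM in ih_STC_BM and 42.0, 38.6 and 25.6 CPM in ih_BCTC, against 35.8, 36.3 and 40.0 CPM in MDSC and 61.7 and 52.4 CPM in MSC. Line libraries fell on both sides of each precursor group. None of the 3 myeloid-labelled lines differed from MDSC past the threshold, at 0.94 ± 0.44 in C12 (log2, adjusted p = 0.0708), 0.62 ± 0.43 in ih_CTC (0.242) and -0.18 ± 0.43 in ih_DCTC (0.746) against MDSC. Against MSC, E2f1 stood at 0.58 ± 0.49 in ih_STC_BM (0.394), -0.69 ± 0.48 in ih_BCTC (0.281) and -0.61 ± 0.48 in MDSC (0.311). Other pairs gave 2 calls, ih_STC_BM above MDSC by 1.19 ± 0.44 (0.0253) and above ih_BCTC by 1.27 ± 0.44 (0.0489). Both were lost without ih_STC_BM library 1 or 3, with only the groups compared and with limma-voom, the first also without any MDSC library and with MDSC summed to 1, and the second without any ih_BCTC library and with no filter on low counts. With the intron share as covariate the first turned round to -0.52 (0.243) and the second was 0.66 (0.0694), and without line libraries under 3% intron share they were 0.02 (0.978) and 0.10 (0.887). The C12 value against MDSC passed without C12 library 3 (1.28, 0.0142) and turned round to -1.09 (0.0395) with the intron share as covariate, as did that of MDSC against MSC, to 1.38 (0.0173). The order of E2f1 was ih_STC_BM, C12, ih_CTC, MSC, MDSC, ih_BCTC and ih_DCTC, with no step past the threshold.

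The levels of each gene were also compared with those of 12001 other genes across the 20 libraries, and the 2 most alike by Pearson's r of log2 CPM were taken. These r values describe libraries that share groups and depth. Ccnd1 was most like Tmem237 (0.979) and Parva (0.978), and Ccnd2 like Gng12 (0.93) and Gosr1 (0.928). For Ccnd3 they were Cxxc5 (0.921) and Rogdi (0.895), for Cdk4 Ash2l (0.986) and Clns1a (0.984), and for Cdk6 Tnxb (0.913) and Acot1 (0.91). Rb1 was most like Cpeb4 (0.978) and Usp25 (0.975), Cdkn1b like Scd1 (0.916) and Lmbr1l (0.915), and Cdkn2c like Il33 (0.962) and Spry3 (0.95). Ccne1 followed Mybl2 (0.916) and Ska1 (0.915), and E2f1 followed Ssna1 (0.9) and Ppp5c (0.895). The highest of these values were those of Cdk4, and the lowest those of Ppp5c with E2f1 and Rogdi with Ccnd3.

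Around these genes, 7 lists of pathway members were read, each against the same shares of all genes called as above. The 20 E2F target genes, most of them DNA replication factors, had few calls against MDSC. In C12, 0 were higher and 2 lower, namely Pcna, the sliding clamp of DNA polymerase (-1.41), and Ezh2, a histone methyltransferase (-1.06). In ih_CTC edgeR called 0 of 20, with 0 at an unadjusted p under 0.05, while DESeq2 called 2 lower and limma-voom 0. In ih_DCTC, 0 were higher and 2 lower, Pcna (-1.57) and Cdc6, a loader of the replicative helicase (-1.94). Their median log2 differences were 0.02, 0.11 and -0.47, beside 0.03, 0.08 and 0.09 over all genes. Against MSC the same list gave 1 higher and 1 lower in ih_STC_BM, Cdt1, a replication licensing factor (1.59), and Pcna (-1.50). It gave 5 higher and 0 lower in ih_BCTC, led by Orc1 of the origin recognition complex (2.24), the checkpoint kinase gene Chek1 (1.91) and the helicase subunit Mcm4 (1.79). The medians were 0.88 and 1.42, beside 0.02 and 0.04 over all genes. MDSC against MSC gave 2 higher, Cdt1 (1.48) and Ezh2 (0.96), and 0 lower.

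Of 9 further E2F and DP factors, 5 fell and 0 rose in C12 against MDSC, 3 fell and 1 rose in ih_CTC, and 3 fell and 1 rose in ih_DCTC. E2f2, an activator E2F, averaged 5.61 CPM in C12, 5.36 CPM in ih_CTC and 6.34 CPM in ih_DCTC, against 194 CPM in MDSC, with log2 differences of -5.11 ± 0.49, -5.18 ± 0.49 and -4.93 ± 0.49. Tfdp2, a dimer partner of E2F, and E2f8, a repressive E2F, fell in all 3 as well, Tfdp2 at -2.16, -1.53 and -2.30 and E2f8 at -1.81, -1.52 and -2.67. Against MSC, 2 fell in ih_STC_BM, E2f2 (-1.43) and E2f6 (-1.02), and 0 rose. In ih_BCTC 4 rose and 0 fell, with E2f7 and Tfdp1 each at 1.53 and E2f3 at 1.11. In MDSC 5 rose against MSC and 0 fell, led by E2f2 (3.66). A list of 8 genes covered pocket proteins and the DREAM complex, which represses cell cycle genes in resting cells, together with Mybl2. Of these, 5 fell in C12, 2 in ih_CTC and 5 in ih_DCTC against MDSC, and 0 rose. Lin54, the DNA-binding subunit, was at -2.01 in C12 and -1.63 in ih_DCTC, and Rbl2, the gene of the pocket protein p130, at -1.21 in ih_CTC. Against MSC, 1 rose in ih_STC_BM, Rbbp4 (1.29), and edgeR called 0 in ih_BCTC, with 2 at an unadjusted p under 0.05 and 0 by DESeq2 or limma-voom.

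Of 7 other G1/S cyclins and kinases, 6 were tested. In C12 against MDSC 1 rose and 3 fell, with Cdk1, the mitotic kinase, at 1.49, Cdk2, the partner of cyclin E, at -2.04 and Ccne2, the other cyclin E, at -1.97. In ih_CTC 1 rose and 1 fell, Cdk1 (1.35) and Cdk2 (-1.36), and in ih_DCTC 0 rose and 3 fell, Ccne2 (-3.18), Cdk2 (-1.53) and Cdc25a, a phosphatase that activates CDK2 (-1.27). Cdk2 averaged 24.1, 38.6 and 34.1 CPM in C12, ih_CTC and ih_DCTC, against 98.8 CPM in MDSC. Against MSC only Ccnb1, the mitotic cyclin B1, rose in ih_BCTC (1.25), and in ih_STC_BM edgeR, DESeq2 and limma-voom each called 0, with 0 at an unadjusted p under 0.05. In MDSC against MSC 2 rose, Cdk2 (1.47) and Cdc25a (1.36).

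Among the 5 other CDK inhibitors, Cdkn2a and Cdkn2b set MSC apart. Cdkn2a encodes p16 and p19Arf, and Cdkn2b encodes p15. Cdkn2a had 0 counts in C12, ih_CTC, ih_DCTC and ih_BCTC, 1 in ih_STC_BM and 6 in MDSC, summed over each group, against 20.3 and 21.8 CPM in MSC. Cdkn2b had 0 counts in C12, ih_DCTC and ih_BCTC, 1 in ih_CTC, 1 in ih_STC_BM and 16 in MDSC, against 30.5 and 33.6 CPM in MSC. In ih_BCTC, Cdkn2a was at least 252-fold and Cdkn2b at least 385-fold lower than in MSC, set against a floor of 3 counts over the group, which covers counting error only. Both genes were called lower in ih_STC_BM and ih_BCTC against MSC, and so was Cdkn1c, the gene of p57, at 0.964 and 0 CPM against 6.32 and 30.1 CPM. Cdkn1a, the gene of p21, was higher in C12 (420 ± 164 CPM) and ih_DCTC (393 ± 189 CPM) than in MDSC (114 ± 6.69 CPM; SD, n = 3), with log2 differences of 1.88 and 1.78. Cdkn2d, which encodes p19Ink4d, fell by 2.25 on the log2 scale in ih_CTC against MDSC.

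The 12 genes that govern the turnover of D-type cyclins and p27 or activate CDKs gave 5 higher and 3 lower in each of C12, ih_CTC and ih_DCTC against MDSC. Mnat1, an assembly factor of the CDK-activating kinase, rose in C12 (1.76) and ih_DCTC (1.79), and Cdc37, a chaperone partner that matures CDK4, in C12 (1.72). Skp2 and Cks1b, which target p27 for destruction, rose in ih_CTC by 1.47 and 1.41. Fbxw7, which targets cyclin E, fell in all 3, at -1.65, -1.57 and -1.66. Against MSC 3 rose and 1 fell in ih_STC_BM, and 1 rose and 0 fell in ih_BCTC, with Fbxo31, a ligase adaptor for cyclin D1, at 1.47 and 1.31. In MDSC against MSC 1 rose and 1 fell, Ambra1, an adaptor for D-type cyclins (0.79), and Cdk7, the CDK-activating kinase (-0.95).

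The 9 growth factor-induced transcription factors, some of which act on Ccnd1 and Cdk4, had more lower than higher calls in the lines against MDSC. C12 had 1 higher and 7 lower, ih_CTC had 2 higher and 5 lower, and ih_DCTC had 1 higher and 5 lower. With the same higher counts, DESeq2 called 5, 4 and 4 lower and limma-voom 7, 6 and 7. Fos, an immediate early gene, averaged 20.4, 28.6 and 47.6 CPM in those lines against 2030 CPM in MDSC. Ets1, an ETS family factor, averaged 76.9 CPM in ih_CTC and 76.7 CPM in ih_DCTC against 816 CPM in MDSC. Against MSC, 3 rose and 0 fell in ih_STC_BM and in ih_BCTC, and they were Myc, Fosl1 and Ets1 in both. Myc averaged 292 ± 217 CPM in ih_STC_BM and 244 ± 57.1 CPM in ih_BCTC (SD, n = 3), against 57.7 ± 14.0 CPM in MSC (SD, n = 2), with log2 differences of 2.34 ± 0.56 and 2.08 ± 0.55. Fosl1, an AP-1 subunit, rose by 3.52 ± 0.62 and 3.53 ± 0.62, and Ets1 by 1.81 and 1.87. In MDSC against MSC 7 rose and 0 fell, led by Ets1 (5.18).

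**Figure D5:**
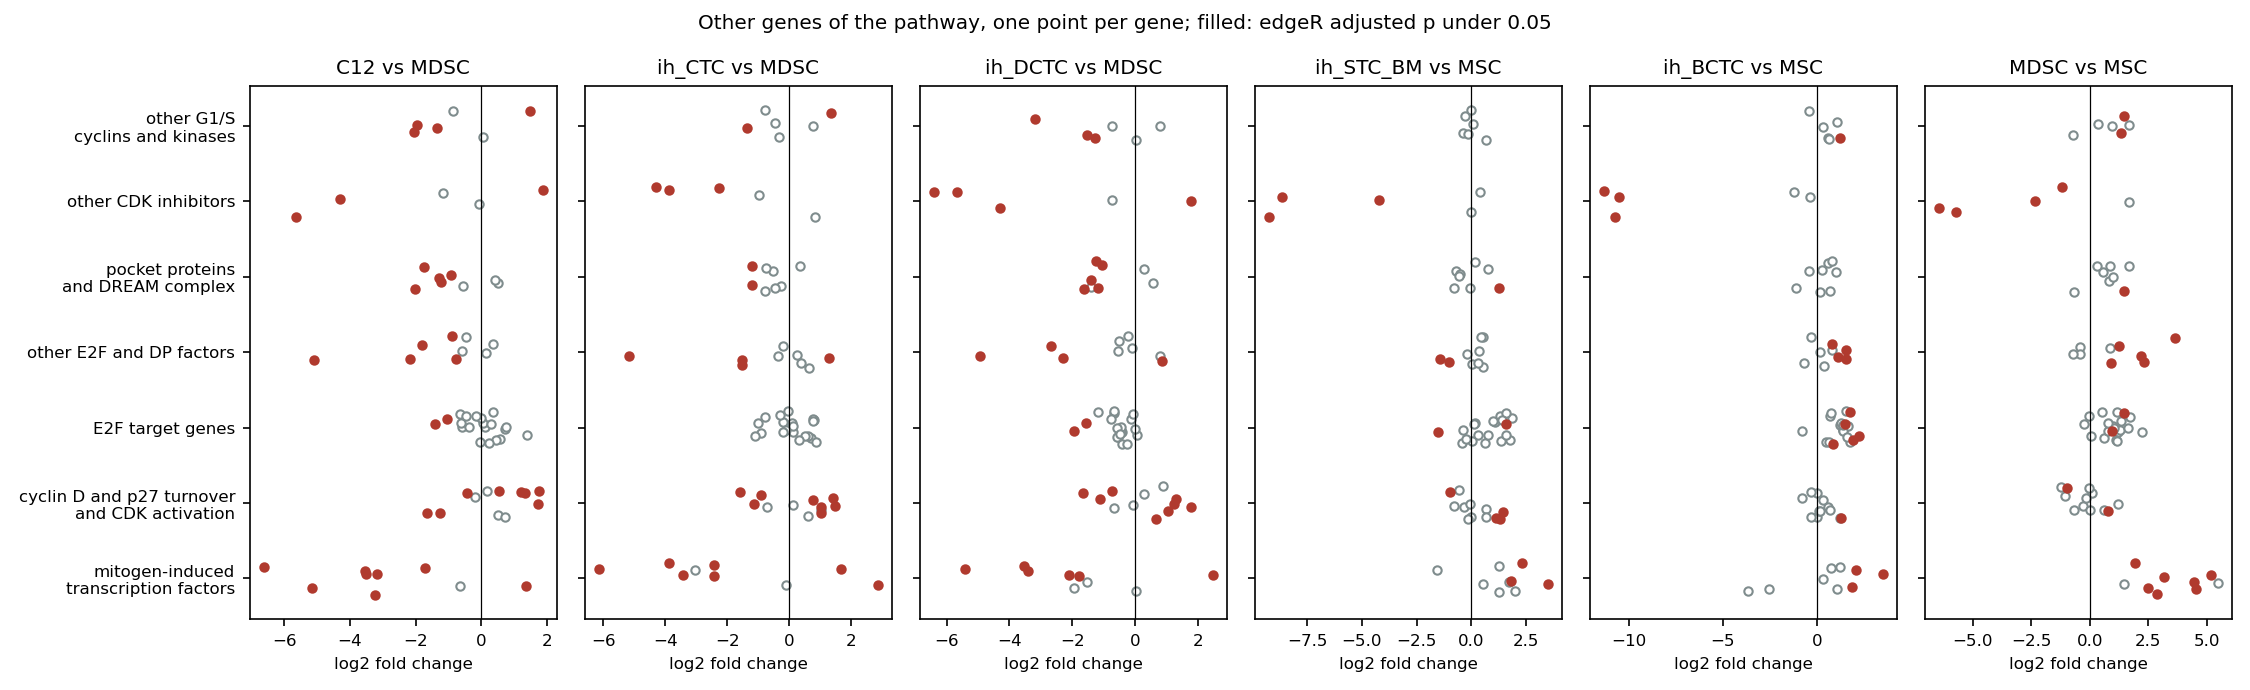
The log2 fold change of every tested gene of the 7 pathway lists (rows) in 6 comparisons (panels, each with its own horizontal scale), 1 point per gene, filled where the adjusted p was under 0.05. The points farthest left in the ih_STC_BM and ih_BCTC panels are fitted values of CDK inhibitors at or near 0 counts and are no bounds. E2F target genes had medians of 0.02, 0.11 and -0.47 in C12, ih_CTC and ih_DCTC against MDSC, and 5 of 20 were called higher in ih_BCTC against MSC.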

How the data were processed

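Per the labels, TRIzol extracts of total RNA went into TruSeq RNA libraries. The gene table deposited by the authors holds expected counts per Ensembl gene, 8.24% of them not whole, and a second deposited table (unit: other) gives reads, mapped reads (67.4% to 77%) and intron shares. STAR, RSEM 1.2.26 and DESeq2 are listed in the submitters' processing notes with no role or order. No source used here names the genome build, and 33497 of 42462 identifiers have the same start and end in GENCODE M21, 7 of the 10 genes among them. Exon lengths are from GENCODE M21.

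Counts were rounded and scaled by TMM in edgeR 4.0.16 (R 4.3.3), and filterByExpr by group (minimum count 10, minimum total 15) kept 15779 of 43432 genes. A robust quasi-likelihood fit with 1 mean per group used all 20 libraries (13 residual degrees of freedom). Tests were two-sided with Benjamini-Hochberg adjustment over all tested genes within each comparison at 0.05, and the standard error is the log2 difference divided by the root of F. The 10 genes, the pathway and marker lists, the naming rule and the tests were chosen with earlier results of these data known. All 10 genes were named, and from each list up to 3 called genes per comparison, by size of change, provided 1 group averaged 5 CPM. Alternatives were scaling by RLE or upper quartile, testing without the filter, DESeq2 1.42.0, limma-voom (limma 3.58.1) and only the groups compared. Further ones were each library left out, MDSC summed to 1, the intron share as covariate, and dropping 5 line libraries under 3% intron share. This last setting kept the MSC libraries, at 2.07% and 3.09%. Chi-square per degree of freedom was 1.73 to 3.32 between MDSC libraries, above sampling noise but far below the 25.6 to 282 of the other groups. MDSC libraries were kept as 3, and whether they come from separate samples cannot be told from the labels. The fit was tested on simulated data. Python 3.11.15 with pandas 2.3.3 and matplotlib 3.10.9 made tables and figures.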

Additional observations from a re-analysis of the deposited data

Results flagged for a closer look

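The lines labelled as myeloid and the line labelled as mesenchymal differed from their precursor groups by unequal amounts in 5 of the 10 genes, with 29.9% of all genes called in that test. The test took the mean of C12, ih_CTC and ih_DCTC minus MDSC, and subtracted ih_STC_BM minus MSC (edgeR, log2 scale). For Ccnd1 the difference was 7.31 ± 0.65 (adjusted p = 2.67e-07), from 7.29 in the myeloid-labelled lines and -0.03 in ih_STC_BM. For Ccnd2 it was 2.24 ± 0.56 (0.0057), from 2.08 and -0.16. Cdkn2c stood at 1.37 ± 0.35 (0.00634), from 2.20 and 0.83, and at 1.02 (0.0758) without MSC library 2. In 2 genes the 2 differences from the precursor groups had opposite signs. Ccnd3 gave -2.46 ± 0.50 (0.00109), from -1.29 and 1.16, and Cdkn1b gave -2.63 ± 0.48 (4.89e-04), from -1.32 and 1.31. Cdk4, Cdk6, Rb1, Ccne1 and E2f1 did not pass, at 0.45 ± 0.51, 0.48 ± 0.42, -1.14 ± 0.86, -1.07 ± 0.68 and -0.12 ± 0.60. MDSC and MSC themselves differed in Ccnd1, Ccnd2, Ccnd3 and Cdkn1b. Each value thus holds the difference between the precursor groups as well as that between the lines. MDSC minus MSC was 2.22 for Ccnd3 and 2.34 for Cdkn1b. Directly against ih_STC_BM, C12, ih_CTC and ih_DCTC stood at 0.03, -0.35 and -0.40 for Ccnd3. For Cdkn1b they stood at -0.85, -0.29 and 0.29, and none of these direct differences passed. The part of blood cell RNA in MDSC and MSC in these values was not tested.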

How the results depend on the processing

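Of the 38 calls of the 10 genes in the 6 comparisons, 27 kept direction and call without any 1 library and 21 under every alternative run. Counts of called genes for C12, ih_CTC and ih_DCTC against MDSC stayed within 1.5 times of 8 under all alternatives. For ih_STC_BM against MSC, 6 became 0 with only those groups fitted and 0 to 5 with 1 library left out. For ih_BCTC against MSC, 3 became 5 with limma-voom, 7 with only those groups, 5 with the intron share as covariate, 7 without line libraries under 3% intron share and 2 to 3 with 1 library left out. For MDSC against MSC, 5 became 8 with only those groups, 3 with MDSC summed to 1 and 3 to 4 with 1 library left out. Among the 5 lines, 1 became 6 with DESeq2, 8 with the intron share, 7 without libraries under 3% and 1 to 7 with 1 library left out. The difference between precursor contrasts gave 8 genes in place of 5 with the intron share. Of 60 neighbouring steps in the order of levels, 7 passed, against 3 with MDSC summed to 1, 13 with the intron share and 13 without libraries under 3%; this order was tested under alternatives chosen after seeing the data.

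Where the value or its alternative passed the threshold, direction turned round with the intron share as covariate for E2f1 in C12 against MDSC (-1.09), Cdk4 (0.46), Rb1 (-1.80) and E2f1 (1.38) in MDSC against MSC, E2f1 in ih_STC_BM against MDSC (-0.52) and Rb1 in the difference between precursor contrasts (2.48). Without line libraries under 3% it turned round for Ccne1 in ih_STC_BM against MSC (-1.51) and against ih_BCTC (-1.57), and for Rb1 in ih_CTC against ih_STC_BM (-0.90) and ih_STC_BM against ih_BCTC (0.67). That setting kept the MSC libraries, at 2.07% and 3.09%, and left 1 library each of C12 and ih_STC_BM. The cause was not tested. Upper quartile scaling moved the median of all genes by 0.27, 0.17 and 0.22 in C12, ih_CTC and ih_DCTC against MDSC and by -0.13 in MDSC against MSC, and RLE by -0.14 and -0.13 in ih_CTC and ih_DCTC. No direction of a called gene among the 10 flipped under either. No paired analysis was possible because the labels give no replicate numbers. Groups of 2 or 3 libraries limit the precision, and Rb1 rested on as few as 13 counts in 1 library.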
